A study of Mus musculus with 22 samples.

Results

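The 6 genes described here are Kap, Odc1, Slco1a1, Slc7a13, Cyp2j13 and Cyp4b1, transcripts of the mouse proximal tubule that respond to androgen. They were taken by symbol from the 16556 genes of the deposited table, and all 6 passed the filter on low counts that left 15064 genes for testing. The study removed carnitine acetyltransferase (Crat), an enzyme of mitochondria that makes acetylcarnitine from acetyl-CoA, in the proximal tubule with a Cre recombinase under the Ggt promoter, and read the 3' ends of messenger RNA from kidney cortex. All 22 libraries came from male C57BL/6J mice. The 6 groups were Pt-CrAT (3) and fl/fl (3) at 12 months, Pt-CrAT (3) and fl/fl (3) at 15 months, and Pt-CrAT (5) and fl/fl (5) at 24 months. The Pt-CrAT label carries the Ggt Cre, and the fl/fl label carries no Cre promoter, and by the design text Crat is floxed in both. Titles give the word LFD at 12 months and chow at 15 and 24 months, so diet word and age change together and the 12-month level was not set against the older ones by test. Each library has a title number of its own, but nothing states separate animals, so p-values measure the spread between these libraries.

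In the kidney, testosterone and dihydrotestosterone change transcription in proximal tubule cells, so that male and female mouse kidneys differ in many transporters and enzymes. Kap, the kidney androgen-regulated protein, is a secreted protein made in large amounts by these cells. Odc1 makes putrescine, the first polyamine, Slco1a1 and Slc7a13 carry organic anions and acidic amino acids, and Cyp2j13 and Cyp4b1 are cytochrome P450 enzymes.

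Crat itself was read first, as a check of the labels. At 12 months it averaged 62.5 ± 19.4 CPM (read counts scaled to a fixed library size, with TMM factors) in Pt-CrAT and 78.9 ± 22.5 in fl/fl (SD, n = 3 each). These groups overlapped, at 42.4 to 81.1 CPM in Pt-CrAT and 54.0 to 98.0 CPM in fl/fl. In the libraries labelled Pt-CrAT at 15 months it averaged 69.1 ± 5.27 CPM, against 45.3 ± 13.3 in those labelled fl/fl (SD, n = 3 each), which goes against the label. At 24 months it averaged 36.2 ± 4.41 CPM in Pt-CrAT and 74.7 ± 24.4 in fl/fl (SD, n = 5 each). The ranges there were 28.4 to 38.9 CPM in Pt-CrAT and 43.5 to 112 CPM in fl/fl. No gene, Crat included, passed edgeR's adjusted test between genotypes at that age. The deleted part of the gene is not stated, so a count at the 3' end checks the deletion only in part. Directions drawn from the 15-month libraries below are therefore directions between libraries as labelled.

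Because the 6 transcripts vary together between some libraries, the sequence just upstream of each start is shown for the 5 genes that have a RefSeq promoter entry (GRCm38.p6). Each stretch ends at the base before the outermost start known to RefSeq or GENCODE, runs 5′ to 3′ on the gene's strand, and has CG dinucleotides and any match to TGTTCT, the half-site of steroid response elements, in capitals. The genes lie on chromosome 6 (Kap and Slco1a1, minus strand), chromosome 12 (Odc1, plus strand) and chromosome 4 (Slc7a13, plus strand, and Cyp2j13 and Cyp4b1, minus strand), and all are protein coding.
Kap, chr6:133853763-133853917, minus strand: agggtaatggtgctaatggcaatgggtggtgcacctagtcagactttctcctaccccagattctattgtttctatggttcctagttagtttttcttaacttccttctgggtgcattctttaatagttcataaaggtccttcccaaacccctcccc
Odc1, chr12:17544623-17544793, plus strand: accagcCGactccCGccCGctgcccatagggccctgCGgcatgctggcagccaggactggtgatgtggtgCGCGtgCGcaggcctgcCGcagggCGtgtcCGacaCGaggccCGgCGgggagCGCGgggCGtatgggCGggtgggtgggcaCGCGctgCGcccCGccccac
Slco1a1, chr6:141946963-141947212, minus strand: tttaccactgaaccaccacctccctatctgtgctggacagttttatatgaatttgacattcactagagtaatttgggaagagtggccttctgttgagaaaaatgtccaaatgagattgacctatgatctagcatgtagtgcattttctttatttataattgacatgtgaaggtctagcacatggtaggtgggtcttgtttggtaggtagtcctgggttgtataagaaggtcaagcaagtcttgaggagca
Cyp2j13, chr4:96077548-96077797, minus strand: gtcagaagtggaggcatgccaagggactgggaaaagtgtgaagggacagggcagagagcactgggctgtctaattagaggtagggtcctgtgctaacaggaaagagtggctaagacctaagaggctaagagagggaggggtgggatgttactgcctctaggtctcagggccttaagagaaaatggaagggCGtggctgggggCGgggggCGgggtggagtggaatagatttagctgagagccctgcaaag
Cyp4b1, chr4:115647724-115647971, minus strand: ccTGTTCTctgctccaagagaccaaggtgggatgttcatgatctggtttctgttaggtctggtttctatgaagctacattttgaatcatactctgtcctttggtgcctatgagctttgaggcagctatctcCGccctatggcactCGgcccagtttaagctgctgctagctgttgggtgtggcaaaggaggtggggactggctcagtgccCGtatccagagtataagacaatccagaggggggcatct
The stretch before Odc1 is the one rich in CG, with 21 CG dinucleotides and 77.2% G or C. Those before Kap and Slco1a1 hold no CG, and those before Cyp2j13 and Cyp4b1 hold 3 each. Over all 32851 mouse windows of the 250 bases before a RefSeq start, the median was 2.4 CG per 100 bases. The printed stretches held 12.3 before Odc1 (171 bases) and 1.2 before Cyp2j13 (250 bases). The stretches of Odc1 and Kap end short of their RefSeq starts, so they are not like windows. On either strand, TGTTCT was found in the 250 bases before the RefSeq start of 1 of the 5 genes, Cyp4b1, where it begins 248 bases upstream. The same letters are found in 16.1% of all such windows. Neither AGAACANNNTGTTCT, an inverted repeat of the half-site found in 0.00913% of windows, nor AGAACANNNAGAACA, a direct repeat found in 0.0183%, was in any of the 5. A match is a description of letters, and its absence says only that these letters are not in these windows. Slc7a13 (chr4:19818725-19842218) is named without a sequence.

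Kap took 0.342% to 4.69% of all counts of a library. At 12 months it stood at 55719, 49868 and 44627 CPM in Pt-CrAT, against 36100, 40041 and 47425 CPM in fl/fl. In the libraries labelled Pt-CrAT at 15 months it stood at 31431, 37096 and 32260 CPM, against 32710, 29184 and 24408 CPM in those labelled fl/fl. The groups overlapped at both ages. At 24 months CrAT24Mchow123 and CrAT24Mchow136, both Pt-CrAT, held 4565 and 2853 CPM, and CrAT24Mchow124, CrAT24Mchow135 and CrAT24Mchow146 held 18928, 28807 and 22860 CPM, against 32398, 32201, 24284, 28255 and 29311 CPM in fl/fl. CrAT24Mchow123 and CrAT24Mchow136 lay far below every other library, while CrAT24Mchow135 lay inside the fl/fl range. Of all counts, Kap was 0.531% in CrAT24Mchow123 (exact 95% interval 0.527 to 0.535) and 0.342% in CrAT24Mchow136 (0.339 to 0.345), against 2.53% to 3.41% in fl/fl of that age. These intervals cover counting error only. The members were picked with the low Kap of these libraries known, so that difference is a description.

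Odc1, ornithine decarboxylase, sets the entry into polyamine synthesis. At 12 months it stood at 153, 104 and 111 CPM in Pt-CrAT, against 102, 96.6 and 52.5 CPM in fl/fl, with no overlap. In the 15-month libraries it was 50.4, 92.5 and 86.3 CPM where the label was Pt-CrAT, against 76.9, 75.2 and 63.2 CPM where it was fl/fl. At 24 months it was 16.2 and 12.97 CPM in CrAT24Mchow123 and CrAT24Mchow136 and 32.5, 61.1 and 29.8 CPM in the other 3 Pt-CrAT libraries, listed as for Kap, against 85.9, 32.3, 34.7, 54.1 and 80.7 CPM in fl/fl. CrAT24Mchow123 and CrAT24Mchow136 were again the lowest, and the other Pt-CrAT libraries overlapped with fl/fl.

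Slco1a1, the organic anion transporting polypeptide 1a1, takes up steroid conjugates and other organic anions. At 12 months it stood at 129, 92.3 and 126 CPM in Pt-CrAT, against 192, 144 and 99.7 CPM in fl/fl. In the 15-month libraries it stood at 68.0, 132 and 176 CPM where the label was Pt-CrAT, against 153, 90.4 and 63.9 CPM where it was fl/fl. Both pairs of groups overlapped. At 24 months it stood at 3.47 and 1.06 CPM in CrAT24Mchow123 and CrAT24Mchow136 and 53.2, 79.7 and 24.1 CPM in the other 3 Pt-CrAT libraries, listed as for Kap, against 122, 33.5, 27.8, 39.4 and 83.7 CPM in fl/fl. The low values came from 53 reads in CrAT24Mchow123 and 16 in CrAT24Mchow136, and the lowest of the other 20 libraries held 24.1 CPM. The fl/fl median at that age was 11.3-fold the level of CrAT24Mchow123 and 37.2-fold that of CrAT24Mchow136, which were the widest such gaps among the 6 genes.

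Slc7a13, an aspartate, glutamate and cystine transporter of the last proximal tubule segment (S3), had 354, 384 and 537 CPM in Pt-CrAT at 12 months, against 699, 468 and 511 CPM in fl/fl. In the libraries labelled Pt-CrAT at 15 months it had 342, 306 and 313 CPM, against 468, 430 and 522 CPM in those labelled fl/fl. The 15-month groups did not overlap, the libraries labelled Pt-CrAT being lower. At 24 months it had 157 and 133 CPM in CrAT24Mchow123 and CrAT24Mchow136 and 343, 329 and 306 CPM in the other 3 Pt-CrAT libraries, listed as for Kap, against 490, 275, 340, 299 and 329 CPM in fl/fl. Outside CrAT24Mchow123 and CrAT24Mchow136, the Pt-CrAT values lay within the fl/fl range.

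Cyp2j13 belongs to the arachidonate-oxidising CYP2J family. At 12 months it stood at 542, 497 and 543 CPM in Pt-CrAT, against 492, 492.7 and 414 CPM in fl/fl, with the nearest values, 497 and 492.7, all but touching. In the 15-month libraries it was 289, 469 and 423 CPM where the label was Pt-CrAT, against 409, 390 and 374 CPM where it was fl/fl. At 24 months it was 70.9 and 28.7 CPM in CrAT24Mchow123 and CrAT24Mchow136 and 209, 299 and 180 CPM in the other 3 Pt-CrAT libraries, listed as for Kap, against 372, 244, 246, 303 and 325 CPM in fl/fl. Apart from CrAT24Mchow135, each Pt-CrAT value at 24 months was below each fl/fl value.

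Cyp4b1, a fatty acid and xenobiotic hydroxylase, had 1250, 1206 and 1698 CPM in Pt-CrAT at 12 months, against 4463, 1482 and 1745 CPM in fl/fl, where Wt12MLFD326 stood apart. In the libraries labelled Pt-CrAT at 15 months it had 925, 979 and 992 CPM, against 1457, 1083 and 1399 CPM in those labelled fl/fl, with no overlap. At 24 months it had 262 and 345.5 CPM in CrAT24Mchow123 and CrAT24Mchow136 and 796, 845 and 513 CPM in the other 3 Pt-CrAT libraries, listed as for Kap, against 1135, 499, 547, 577 and 756 CPM in fl/fl. CrAT24Mchow123 and CrAT24Mchow136 were the lowest here too, in the other order. The P450 and Slco genes have close relatives next to them, and how reads shared between copies were counted is not given in the sources used here.

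**Figure D1:**
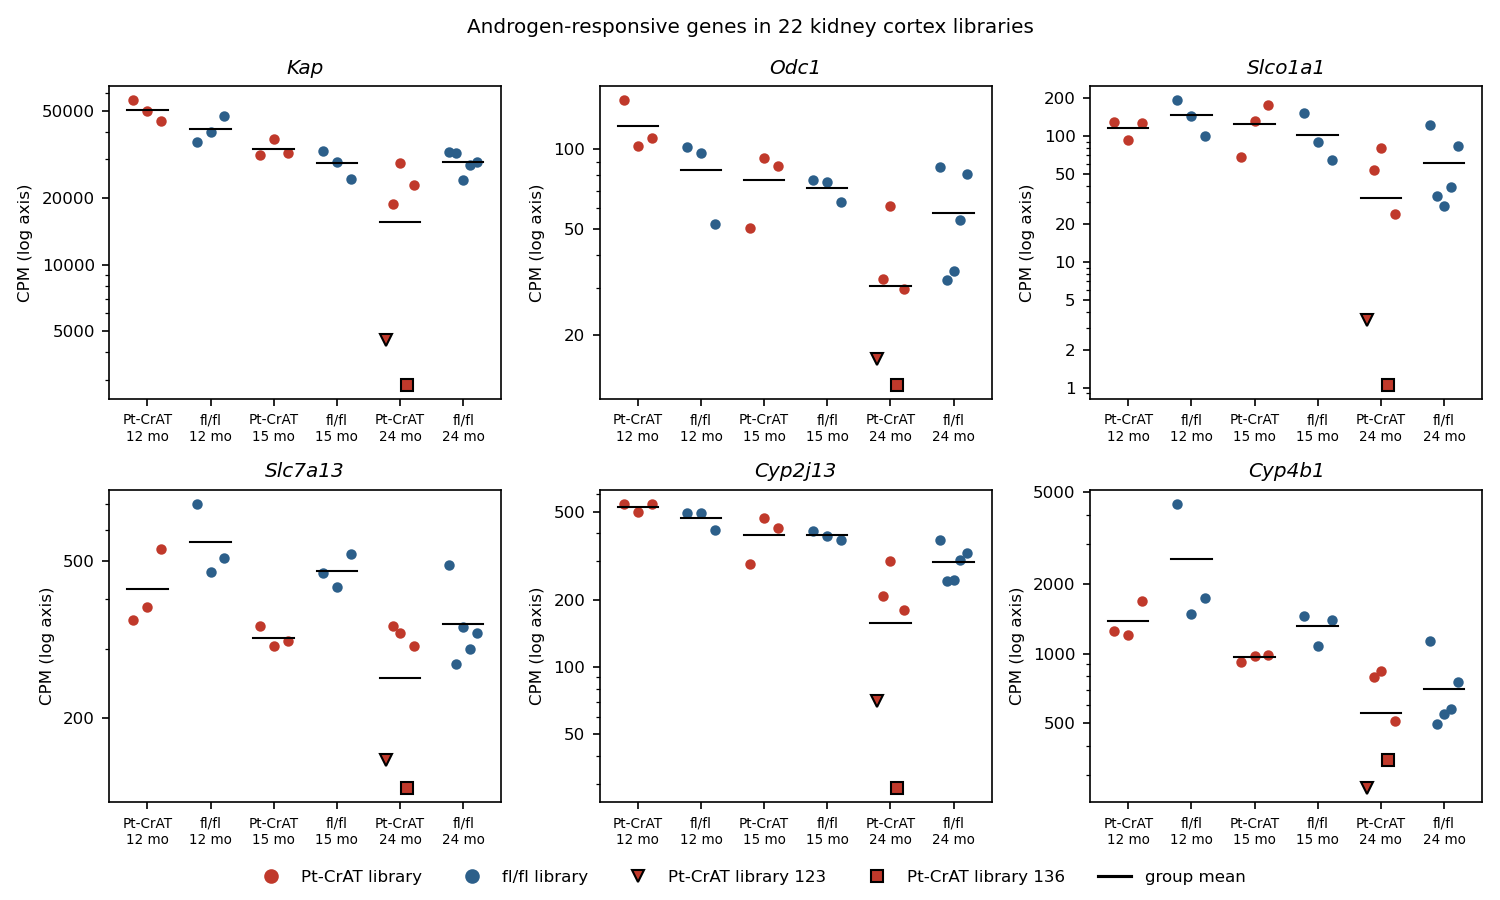
CPM of the 6 genes on log axes in the 22 libraries, by genotype label and age in months (red, Pt-CrAT; blue, fl/fl; black lines, group means). The triangle (CrAT24Mchow123) and the square (CrAT24Mchow136) are the lowest points in all 6 panels, from 4565 and 2853 CPM for Kap to 3.47 and 1.06 CPM for Slco1a1.

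By mean level, Kap was highest in Pt-CrAT at 12 months (50071 ± 5549 CPM; SD, n = 3) and lowest in Pt-CrAT at 24 months (15603 ± 11429 CPM; SD, n = 5), and each group in the order overlapped with its neighbour. All 6 genes had their lowest group mean in Pt-CrAT at 24 months, and the share over all genes was not counted. That count and the spread below include CrAT24Mchow123 and CrAT24Mchow136, whose low Kap was known at picking, so both are descriptions. Slc7a13 had 343, 329 and 306 CPM in the other libraries of that group, against a mean of 320 CPM under the 15-month Pt-CrAT label. Cyp4b1 had 796, 845 and 513 CPM there, against a mean of 703 CPM in fl/fl at 24 months. Neighbours in the order of means failed to overlap for Odc1 between Pt-CrAT and fl/fl at 12 months, for Cyp2j13 between those same groups and between fl/fl at 15 and 24 months, and for Cyp4b1 between the 15-month groups. Of all genes tested, 16.3% were higher in Pt-CrAT without overlap at 12 months, 8.26% were lower without overlap at 24 than at 15 months in fl/fl, and 12.7% were lower without overlap in the libraries labelled Pt-CrAT at 15 months. The median coefficient of variation of the 6 genes was also highest in Pt-CrAT at 24 months, although that of Cyp4b1 was 47.3% there and 64.4% in fl/fl at 12 months. In Pt-CrAT at 24 months it ran from 39.5% for Slc7a13 to 104% for Slco1a1, with a median of 65.7%, against a median of 30.7% in fl/fl of that age. For Kap it was 73.2% in Pt-CrAT and 11.4% in fl/fl.

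Across all 22 libraries, CrAT24Mchow123 and CrAT24Mchow136 held the 2 lowest values of every one of the 6 genes. The same was true of 5.33% of all genes tested, and within the 24-month libraries of 8.01%. The genes were picked with the low Kap of these libraries known, so this is a description. Among 13 other male-biased or androgen-induced kidney genes, 7 had both lowest values there. Among 4 female-biased kidney genes, 3 had both highest values there, against 3.48% of all genes tested. The summed level of the 13 male-biased genes was 1515 CPM in CrAT24Mchow123 and 1456 CPM in CrAT24Mchow136, against 2641 to 5013 CPM in the other 20. The female-biased genes together reached 1716 and 2466 CPM, against 35.6 to 745 CPM in the other 20. Most of that sum was Cyp4a14, a fatty acid hydroxylase, with 1625 and 2338 CPM. Prlr, the prolactin receptor, stood at 84.5 and 119 CPM, against at most 68.8 CPM elsewhere. Slc7a12, an amino acid transporter, stood at 5.90 and 7.28 CPM, against at most 3.85 CPM elsewhere. Of the Y-linked genes, looked at after these values were seen, Ddx3y stood at 78.0 CPM in CrAT24Mchow123 and 82.3 CPM in CrAT24Mchow136, within the 65.7 to 89.5 CPM of the other 20. Kdm5d and Eif2s3y also lay within the range of the other 20 in both, and Uty did at 30.7 CPM in CrAT24Mchow123 but stood at 38.1 CPM in CrAT24Mchow136, above the 19.6 to 34.8 CPM of the other 20.

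**Figure D2:**
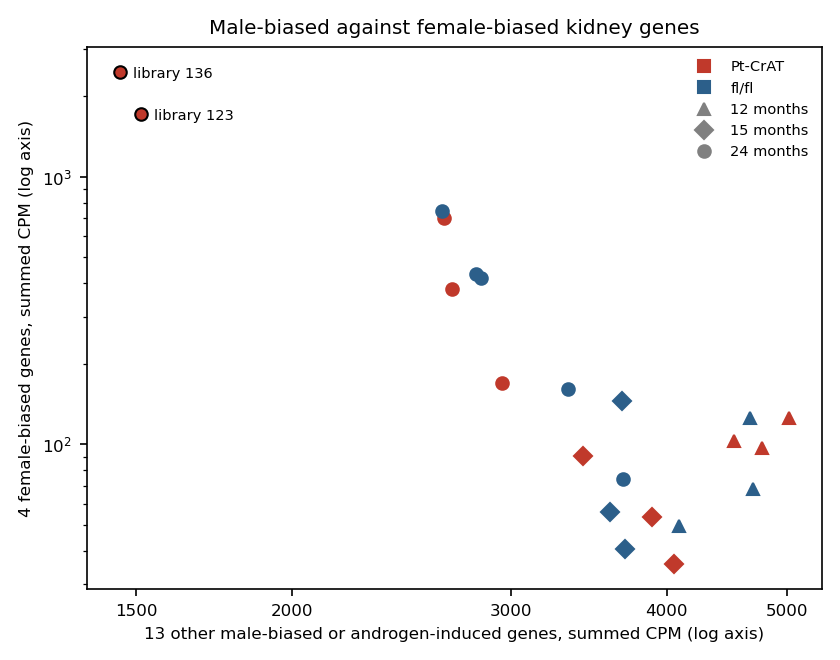
Summed CPM of 4 female-biased genes (vertical, log axis) against that of 13 male-biased or androgen-induced genes other than the 6 described here (horizontal, log axis), 1 point per library (red, Pt-CrAT; blue, fl/fl; shape, age). CrAT24Mchow123 and CrAT24Mchow136 stand alone at the upper left, with 1716 and 2466 CPM of the female-biased genes, and the next highest library held 745 CPM.

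In bulk tissue, fewer proximal tubule cells and less RNA per cell cannot be told apart. Summed marker levels of some nephron parts also stood apart in the same 2 libraries. The 18 S1 and S2 markers summed to 13904 CPM in CrAT24Mchow123 and 13137 CPM in CrAT24Mchow136, against 16628 to 19941 CPM in the other 24-month libraries. The 10 S3 markers summed to 2123 and 1697 CPM, against 3029 to 4449 CPM. The fl/fl medians of these sums at 24 months were 17311 and 3878 CPM. As a share of its own fl/fl median, Kap stood at 15.6% and 9.73% in the 2 libraries. Odc1 stood at 29.9% and 24.0%, Slco1a1 at 8.81% and 2.69%, and Cyp2j13 at 23.4% and 9.46%. Slc7a13 stood at 47.8% and 40.5%, and Cyp4b1 at 45.4% and 59.9%. Most of the S3 sum was Ggt1, with 1832 and 1324 CPM. Both lowest values of the 22 libraries lay there for 6 of the 18 S1 and S2 markers and 5 of the 10 S3 markers. The same was true of 5.33% of all genes tested, and 1 S3 marker had both highest values there. The collecting duct markers summed to 1347 and 1395 CPM, against 617 to 1088 CPM, and the thick ascending limb markers to 3878 and 3268 CPM, against 2202 to 3375 CPM. Most of each sum was 1 gene, Aqp2 at 991 and 1010 CPM and Slc12a1 at 3303 and 2210 CPM. Both highest values of the 22 libraries lay there for 1 of 9 collecting duct and 0 of 5 thick ascending limb markers. The share over all genes tested was 3.48%. The tubular injury markers summed to 708 and 651 CPM, against 474 to 613 CPM. Adipocyte markers stood at 67.1 and 184 CPM, inside or below the 81.6 to 329 CPM of the others. Some of these markers are also in the sex-biased lists above. Slc22a6 is an S1 and S2 marker, and Acsm3, Cyp7b1 and Slc22a30 are S3 markers, and all are among the male-biased genes. Slc7a12 is an S3 marker and a female-biased gene. The marker sums are therefore not separate from those lists. The part of these markers in the levels of the 6 genes was not tested.

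To see whether the other 5 genes varied with Kap between libraries of the same group, log2 CPM was centred on each group's mean. Since the low Kap of CrAT24Mchow123 and CrAT24Mchow136 was known when the genes were picked, the values over all libraries are descriptions, with no test. Over 22 libraries Pearson's r with Kap was 0.93 for Cyp2j13, 0.89 for Slco1a1, 0.75 for Slc7a13, 0.68 for Odc1 and 0.54 for Cyp4b1. Spearman's rho was 0.63 for Cyp2j13, 0.70 for Slco1a1, 0.33 for Slc7a13, 0.51 for Odc1 and 0.32 for Cyp4b1. Without CrAT24Mchow123 and CrAT24Mchow136, which lie farthest from the median of Kap, r was 0.42 for Cyp2j13, 0.35 for Slco1a1, -0.29 for Slc7a13, 0.34 for Odc1 and -0.09 for Cyp4b1. No permutation p of r was below 0.153, and none of rho was below 0.132. Over both genotypes each r was thus lower without these 2 libraries, and those of Slc7a13 and Cyp4b1 turned negative. Among the 11 fl/fl libraries r ran from -0.17 to 0.38, and among the 11 Pt-CrAT libraries from 0.82 to 0.96. Without CrAT24Mchow123 and CrAT24Mchow136, the Pt-CrAT values were 0.77 for Odc1, 0.61 for Cyp2j13, 0.33 for Slco1a1, -0.07 for Cyp4b1 and -0.51 for Slc7a13.

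**Figure D3:**
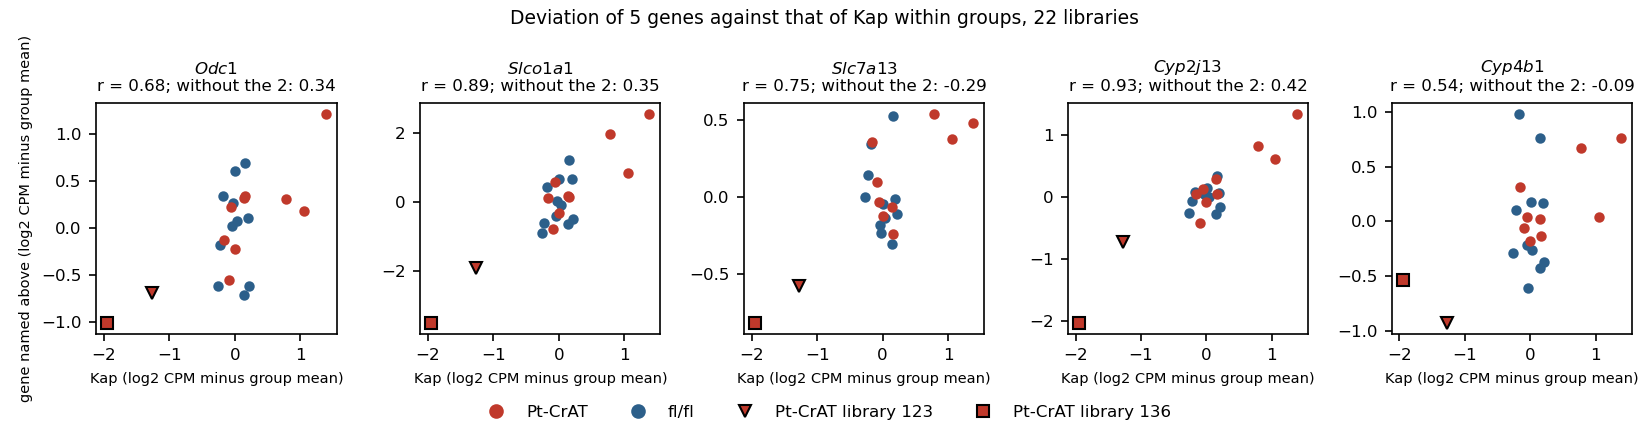
Deviation of each of 5 genes from its group mean (vertical, log2 CPM) against that of Kap (horizontal, log2 CPM) in 22 libraries (red, Pt-CrAT; blue, fl/fl; triangle, CrAT24Mchow123; square, CrAT24Mchow136). Pearson's r above each panel falls, for example for Cyp2j13, to 0.42 without the 2 marked libraries, against 0.93 with them, after centring anew.

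Ranked by this r among 15063 genes, Cyp2j13 was 10th, Slco1a1 24th, Slc7a13 195th, Odc1 347th and Cyp4b1 921st. Of 9376 named genes with a mean of at least 5 CPM, the 8 most like Kap over the 22 libraries were Sec14l3 (r = 0.97), Acy3 (0.96), Mpv17l (0.95), Ugt2b37 (0.95), Slc22a7 (0.94), Slc51a (0.94), Vwa1 (0.94) and Pzp (0.94). Without CrAT24Mchow123 and CrAT24Mchow136, r was 0.81 for Sec14l3, a lipid transfer protein, and 0.79 for Mpv17l, an organelle membrane protein, against 0.52 for Acy3, an aminoacylase. It was 0.40 for Ugt2b37, a glucuronosyltransferase. Slc22a7, an organic anion transporter, had 2.42 CPM in CrAT24Mchow123 and 1.65 CPM in CrAT24Mchow136, against 14.3 to 128 CPM in the other 20. Pzp, a protease-binding protein of the macroglobulin family, had 1.25 and 1.06 CPM there, against 10.5 to 52.0 CPM. The 4 genes with the most negative r were Lrtm2 (-0.89), Gsta4 (-0.84), Tanc1 (-0.83) and Acsl1 (-0.83). Gsta4, a glutathione transferase, had 54.5 and 77.2 CPM in those libraries, against 8.87 to 23.8 CPM in the other 20. With CrAT24Mchow123 and CrAT24Mchow136 left out, r was -0.04 for Gsta4, -0.34 for Lrtm2, -0.75 for Tanc1 and -0.63 for Acsl1. These are descriptions, with no test.

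Between the Pt-CrAT and fl/fl labels, none of the 6 genes passed edgeR's quasi-likelihood test at an adjusted p of 0.05 in any of the 3 settings. The setting in which Crat goes against the label compares libraries as labelled, so it cannot test the effect of the Crat deletion. At 24 months all 6 fitted log2 fold changes (Pt-CrAT over fl/fl) were negative, with a median of -0.91 against 0.02 over all genes tested. The low Kap of CrAT24Mchow123 and CrAT24Mchow136 was known when the genes were picked, so this shared direction is a description. Cyp2j13 was -0.92 ± 0.38 (SE; edgeR adjusted p = 0.475), Odc1 -0.91 ± 0.36 (0.468), Kap -0.91 ± 0.40 (0.505) and Slco1a1 -0.92 ± 0.70 (0.659). Slc7a13 was -0.45 ± 0.22 (0.536) and Cyp4b1 -0.35 ± 0.32 (0.716). In this setting 0 genes of the whole table, or 0%, passed edgeR's adjusted test, 9.35% had an unadjusted p under 0.05, and DESeq2 called 13. Without CrAT24Mchow123 and CrAT24Mchow136, fitted values were -0.33 for Kap, -0.49 for Odc1, -0.24 for Slco1a1, -0.10 for Slc7a13, -0.39 for Cyp2j13 and 0.02 for Cyp4b1, with edgeR adjusted p of 0.982 or above.

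At 12 months the log2 fold changes were 0.55 ± 0.46 for Odc1 (SE; edgeR adjusted p = 0.422), 0.28 ± 0.51 for Kap (0.743) and 0.18 ± 0.48 for Cyp2j13 (0.835). They were -0.33 ± 0.89 for Slco1a1 (0.833), -0.40 ± 0.29 for Slc7a13 (0.345) and -0.89 ± 0.41 for Cyp4b1 (0.137). Of all genes tested, 16.4% passed in this setting, but 0.00727% did in a fit of only these groups. Odc1 and Cyp2j13 were higher in every Pt-CrAT library than in any fl/fl library, as were 16.3% of all genes, and 3 against 3 libraries cannot give an exact permutation p below 0.1. The value of Cyp4b1 rests on fl/fl Wt12MLFD326, without which it was -0.22. In the 15-month libraries as labelled, fitted values were -0.56 ± 0.29 for Slc7a13 (SE; edgeR adjusted p = 0.581) and -0.44 ± 0.41 for Cyp4b1 (0.689). The other 4 lay between 0.01 and 0.29. Slc7a13 and Cyp4b1 were lower in every library labelled Pt-CrAT than in any labelled fl/fl, as were 12.7% of all genes, while 0% passed the adjusted test and 8.29% had an unadjusted p under 0.05.

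Whether the genotype difference itself varied was tested as a difference of differences. The 24-month minus the 15-month difference was -1.13 ± 0.65 for Kap (SE; edgeR adjusted p = 0.388), -1.003 ± 0.58 for Odc1 (0.392), -0.93 ± 0.61 for Cyp2j13 (0.439) and -1.21 ± 1.13 for Slco1a1 (0.585), on the log2 scale and by the 15-month labels. It was 0.11 ± 0.36 for Slc7a13 (0.891) and 0.10 ± 0.52 for Cyp4b1 (0.938). Against 12 months the widest was -1.46 ± 0.58 for Odc1 (edgeR adjusted p = 0.0835), where 17% of all genes passed, and diet word and age differ together. None of the 6 passed in either, and in the 24-minus-15-month test 0% of all genes passed, with 15% at an unadjusted p under 0.05 and 23 called by DESeq2.

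**Figure D4:**
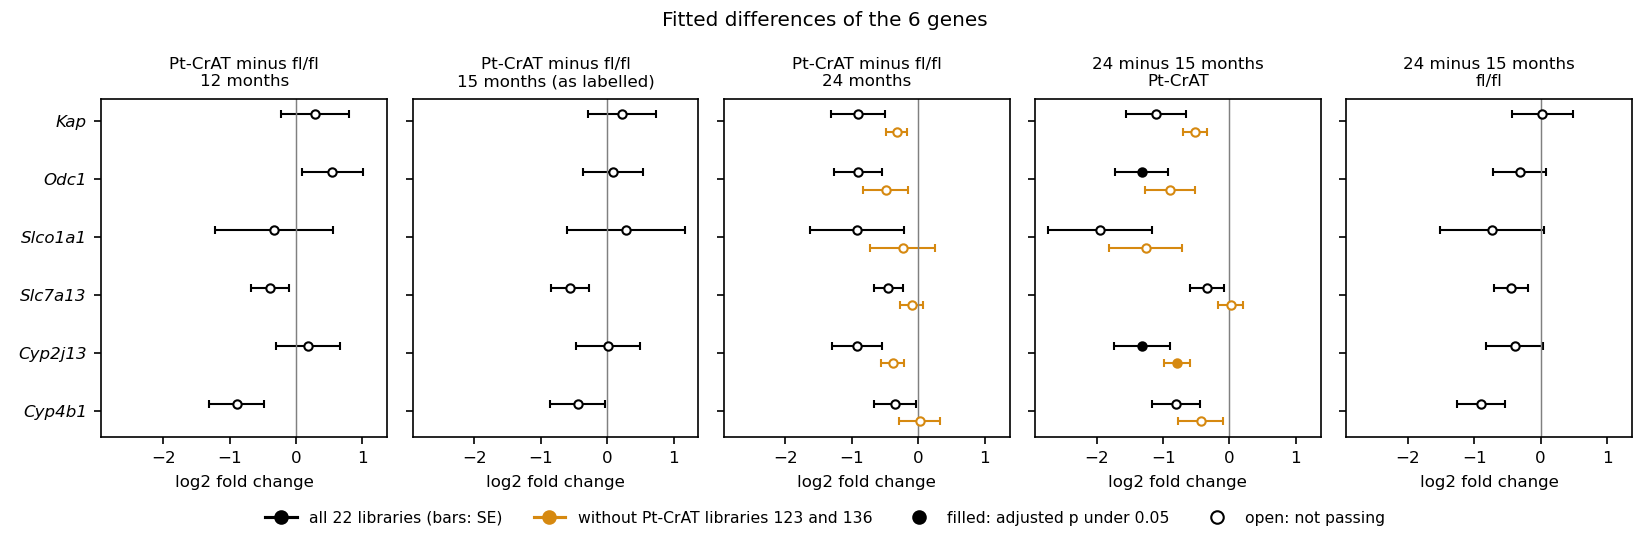
Fitted log2 fold changes of the 6 genes with SE bars in 5 comparisons (black, all 22 libraries; orange, without CrAT24Mchow123 and CrAT24Mchow136, shown for the comparisons that hold them). Filled points pass an edgeR adjusted p of 0.05, which only Odc1 (-1.32) and Cyp2j13 (-1.32) did with all libraries, both in the age comparison of the Pt-CrAT label.

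Between ages, Odc1 and Cyp2j13 fell in the libraries labelled Pt-CrAT. Odc1 averaged 30.5 ± 19.0 CPM at 24 months (SD, n = 5) and 76.4 ± 22.7 CPM at 15 months (SD, n = 3), a log2 fold change of -1.32 ± 0.40 (SE; edgeR adjusted p = 0.0405). Cyp2j13 averaged 158 ± 109 CPM at 24 months (SD, n = 5) and 394 ± 93.4 CPM at 15 months (SD, n = 3), a log2 fold change of -1.32 ± 0.42 (SE; edgeR adjusted p = 0.0486). Of the 6 genes 2 fell, where 5.71% of all genes tested fell and 11.3% passed in either direction. The low Kap of CrAT24Mchow123 and CrAT24Mchow136 was known when the genes were picked, so this count is a description. The other 4 had negative values that did not pass, of -1.95 ± 0.79 for Slco1a1 (SE; edgeR adjusted p = 0.117), -1.11 ± 0.45 for Kap (0.116), -0.81 ± 0.36 for Cyp4b1 (0.153) and -0.34 ± 0.25 for Slc7a13 (0.411). The Crat of the 15-month libraries goes against their labels, and this comparison has them as its earlier age. Without CrAT24Mchow123 and CrAT24Mchow136, Odc1 was -0.90 (edgeR adjusted p = 0.207) and Cyp2j13 -0.79 (0.0294). Neither gene passed with library totals in place of TMM (-1.10 for Odc1, -1.11 for Cyp2j13) or in a fit of only these groups (-1.32 each), and with no filter on low counts Cyp2j13 did not (-1.33). Leaving out 1 library kept both calls only without CrAT15Mchow183 or CrAT24Mchow135. Without CrAT15Mchow185, CrAT15Mchow204, CrAT24Mchow123, CrAT24Mchow124 or CrAT24Mchow146 neither passed, with edgeR adjusted p from 0.0519 to 0.181, and without CrAT24Mchow136 Odc1 did not (0.0886). Without CrAT24Mchow135, Kap (-1.44, edgeR adjusted p = 0.0368) and Slco1a1 (-2.61, 0.0421) passed too. That fit leaves out the highest Kap of its group and keeps the 2 low values known when the genes were picked. These passes are therefore descriptions.

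In fl/fl none of the 6 passed between the same ages, where 1.3% of all genes did. Cyp4b1 averaged 703 ± 261 CPM at 24 months (SD, n = 5) and 1313 ± 202 CPM at 15 months (SD, n = 3), a value of -0.90 ± 0.36 (SE; edgeR adjusted p = 0.164). Kap averaged 29290 ± 3327 CPM at 24 months (SD, n = 5) and 28768 ± 4167 CPM at 15 months (SD, n = 3), a value of 0.03 ± 0.46 (SE; edgeR adjusted p = 0.982). The remaining values were -0.74 for Slco1a1, -0.45 for Slc7a13, -0.39 for Cyp2j13 and -0.32 for Odc1. The difference between the age effects of the genotypes is the test given above, which none passed.

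Other androgen-linked genes were listed for the same comparisons. These lists were chosen with earlier results of these data known, so their counts and medians are descriptions. In the libraries labelled Pt-CrAT, 5 of 13 other male-biased or androgen-induced genes fell between 15 and 24 months and none rose, where 5.71% of all genes fell. The list median was -0.59, against 0.04 over all genes tested. Cyp2j5, an epoxygenase, was -0.59 (edgeR adjusted p = 0.014), Slc22a6, the organic anion transporter OAT1, -0.86 (0.0172), Adh1, an alcohol dehydrogenase, -0.81 (0.0176) and Nudt19, a coenzyme A diphosphatase, -1.20 (0.0199). Of the 4 female-biased genes 3 rose, where 5.61% of all genes rose. Cyp4a14 averaged 1016 ± 934 CPM at 24 months (SD, n = 5) and 47.5 ± 22.4 CPM at 15 months (SD, n = 3), and Prlr 65.4 ± 37.8 CPM at 24 months and 11.8 ± 5.65 CPM at 15 months. The log2 fold changes were 4.42 for Cyp4a14 (edgeR adjusted p = 0.00987), 2.47 for Prlr (0.0106) and 4.17 for Slc7a12 (0.00692), which averaged 4.21 ± 2.23 CPM at 24 months (SD, n = 5) and 0.228 ± 0.327 CPM at 15 months (SD, n = 3). Without CrAT24Mchow123 and CrAT24Mchow136, a setting chosen after seeing the data, 0 of 13 and 0 of 4 passed, with values of 2.96 for Cyp4a14 (edgeR adjusted p = 0.0695) and -0.38 for Cyp2j5 (0.085). Without CrAT15Mchow185 likewise 0 and 0 passed, and without CrAT15Mchow204 1 and 0. In fl/fl none of either list passed, and Cyp4a14 was 2.38 (edgeR adjusted p = 0.144). In the genotype comparison at 24 months all 13 male-biased genes had negative values and none passed, the nearest being Adh1 (-0.61, edgeR adjusted p = 0.461) and Cyp2j5 (-0.36, 0.461).

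Marker levels of cell types differed between these ages as well. The S1 and S2 markers summed to 13137 to 17595 CPM in Pt-CrAT at 24 months, against 22670 to 24981 CPM in the libraries labelled Pt-CrAT at 15 months, and 9 of 18 fell. In fl/fl they summed to 16814 to 19941 CPM at 24 months and 20661 to 22976 CPM at 15 months, and 1 of 18 fell. The S3 markers summed to 1697 to 3640.5 CPM in Pt-CrAT at 24 months and 4019 to 4698 CPM in the libraries labelled Pt-CrAT at 15 months. Of these 10 markers 2 rose and 2 fell. Most of the sum was Ggt1, averaging 2224 CPM at 24 months and 3502 CPM at 15 months in that label. In fl/fl Ggt1 averaged 3213 CPM at 24 months and 2809 CPM at 15 months. At 12 months it averaged 5147 CPM in Pt-CrAT and 2606 CPM in fl/fl. The Cre was under the Ggt promoter, and its part in Ggt1 counts was not tested. In fl/fl the S3 markers summed to 3402 to 4449 CPM at 24 months and 3526 to 3785 CPM at 15 months, and 0 of 10 passed. In the Pt-CrAT label 6 of 7 thin limb, medulla and urothelial markers rose and 9 of 16 tubular injury markers rose, and 1 fell. Of all genes tested, 5.61% rose and 5.71% fell in the Pt-CrAT label, and 1.3% passed in fl/fl. In the fit without CrAT24Mchow123 and CrAT24Mchow136, 4 of 18 S1 and S2 markers fell, 3 of 7 thin limb, medulla and urothelial markers rose and 5 of 16 tubular injury markers rose. There 417 of 14905 genes tested passed. Their part in the levels of the 6 genes was not tested.

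Of the steroid reductases and the cofactors of steroid receptors, between ages in the Pt-CrAT label 1 of 8 genes fell and none rose, where 11.3% of all genes passed in either direction: Srd5a1, a steroid 5-alpha reductase that makes dihydrotestosterone, at -0.66 ± 0.20 (SE; edgeR adjusted p = 0.0341) and, without CrAT24Mchow123 and CrAT24Mchow136, at -0.42 (0.235). Around Odc1, 2 of 16 other polyamine genes rose and 3 fell in that comparison, where 5.61% of all genes rose and 5.71% fell. Leaving out CrAT24Mchow123 and CrAT24Mchow136, 1 rose and 0 fell, where 2.8% of all genes passed. Amd1, the decarboxylase that supplies aminopropyl groups, was 0.95 (edgeR adjusted p = 0.0032). Dohh, which completes hypusine on Eif5a, was -0.64 (0.00607), Eif5a -0.42 (0.0194), and Sms, spermine synthase, -0.62 (0.0233). In fl/fl none of the 16 passed, with Eif5a nearest at -0.31 (edgeR adjusted p = 0.133). At 24 months none passed between genotypes, with Dohh at -0.31 (edgeR adjusted p = 0.468).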

How the data were processed

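Kidney cortex RNA, isolated by TRIzol, went into Lexogen QuantSeq 3' FWD libraries, per the labels' protocols. The submitters' processing notes name the build GRCm38, DESeq2 1.18.1 and R 3.4.3. For the aligner, counter and strand setting, nothing is given in the sources used here. The authors deposited raw counts per gene for 16556 genes, which all tests start from, and a normalized signal of counts divided by size factors, per the file headers, used for symbols only. Recomputed size factors differed from theirs by a relative 1.54e-10 at most.

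Counts were fitted with edgeR 4.0.16 (limma 3.58.1, R 4.3.3) after TMM scaling and the filterByExpr filter, which left 15064 genes, with the robust quasi-likelihood test on 7 contrasts of a joint model of the 22 libraries (16 residual degrees of freedom). Benjamini-Hochberg adjustment ran over all genes tested, and the threshold was 0.05. The fit was also run on counts simulated from its own fitted spread, with equal group means apart from set changes. That run does not cover libraries that stand apart within a group. Total counts were 12175804 to 17447367 per library, with 1 at 53157575. Within groups the 32 library pairs differed beyond sampling noise, with a chi-square of 9.43 to 123.2 for each degree of freedom. Correlations used log2 CPM with a prior count of 2 and 100000 permutations within groups (numpy 2.4.6, scipy 1.17.1). Gene coordinates are from GENCODE M21 and promoters from RefSeq.

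The members and all lists were chosen with earlier results of these data known. For that reason the exact tests of single genes and the permutation p-values of correlations over all libraries are not given. One further gene is not reported here. All 6 members are named. Of each other list, at most 4 genes that passed, by smallest p, are named, or, where none passed, at most 2. The 8 genes most like Kap and the 4 least like it are named too. The Y-linked genes, the largest genes of the nephron marker sums and the genes shared between lists were added after values were seen. Alternatives were DESeq2 1.42.0 (size factors and Wald test), library totals, no filter, limma-voom, fits of only the groups compared, and leaving out libraries. The file of column sums was left out.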

Additional observations from a re-analysis of the deposited data

How the results depend on the processing

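No paired analysis was possible because no replicate number is shared between groups. Over 7 contrasts, alternatives other than leaving out 1 library kept the direction and call of 262 values of the 6 genes, while 7 turned sign, 6 no longer passed and 1 newly passed. As a share of the genes tested in each fit, 11.3% were called between ages in the Pt-CrAT label, against 18% with library totals and 2.8% without CrAT24Mchow123 and CrAT24Mchow136. In fl/fl the share was 1.3%, against 2.24% with library totals and 5.07% with DESeq2's Wald test. DESeq2 called 0.0863% between genotypes at 24 months and 0.153% in the 24-minus-15-month difference, where edgeR called 0. Fits of only the groups compared called 0.00727% at 12 months (16.4% in the joint fit), 0.029% at 15 months and 8.75% in the 24-minus-12-month difference (17% in the joint fit). For age in the Pt-CrAT label, Odc1 did not pass with library totals (-1.10), with only the groups compared (-1.32) or without CrAT24Mchow123 and CrAT24Mchow136 (-0.90). Cyp2j13 did not pass with library totals (-1.11), no filter (-1.33) or only the groups compared (-1.32), and Slco1a1 passed with limma-voom (-3.12). Signs turned without a call for Cyp2j13 at 15 months (-0.059 with library totals, -0.019 with limma-voom), and for Slc7a13 in the 24-minus-12-month difference with library totals (0.18). They also turned without CrAT24Mchow123 and CrAT24Mchow136 for Cyp4b1 at 24 months (0.021), Slc7a13 with age in the Pt-CrAT label (0.019), and Slco1a1 (0.093) and Slc7a13 (0.30) in the 24-minus-12-month difference. Without these libraries r with Kap was 0.34 for Odc1, 0.35 for Slco1a1, -0.29 for Slc7a13, 0.42 for Cyp2j13 and -0.093 for Cyp4b1. The cause was not tested.

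Leaving out 1 library at a time called 0.344% to 22.8% of genes at 12 months, 0 to 0.0133% at 24 months, 2.55% to 11.8% with age in the Pt-CrAT label, 0.0195% to 5.04% with age in fl/fl and 1.33% to 23.6% in the 24-minus-12-month difference. The lowest shares came without CrAT12MLFD328 at 12 months and in the 24-minus-12-month difference, and without CrAT15Mchow204 with age in the Pt-CrAT label. With age in the Pt-CrAT label it gave -1.44 to -0.84 for Kap, -1.73 to -1.13 for Odc1, -2.61 to -1.61 for Slco1a1 and -1.68 to -1.06 for Cyp2j13; in fl/fl Kap ran from -0.080 to 0.13. At 15 months Odc1 ran from -0.078 to 0.32, Slco1a1 from -0.052 to 0.70 and Cyp2j13 from -0.14 to 0.19. In the 24-minus-15-month difference Slc7a13 ran from -0.00419 to 0.29 and Cyp4b1 from -0.089 to 0.36. In the 24-minus-12-month difference Odc1 ran from -1.89 to -1.22, Slc7a13 from -0.25 to 0.14 and Cyp4b1 from -0.13 to 0.80.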

Other observations

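Close relatives of the transporters and P450 genes were read in the same way between 15 and 24 months in the libraries labelled Pt-CrAT. Of 7 other Slco genes 3 rose and 1 fell: Slco1a6, the neighbour of Slco1a1, was -0.78 (edgeR adjusted p = 0.00265), and Slco2a1, the prostaglandin transporter, was 0.73 (0.00501). Of 10 other Slc7 genes and heavy chains 4 rose and 1 fell, with Slc7a7 at -0.64 (edgeR adjusted p = 0.0019) and Slc7a1, the arginine and lysine transporter, at 0.95 (0.00901). Slc7a1 also rose in fl/fl, at 1.07 (edgeR adjusted p = 0.0212). Of 11 other Cyp4 genes 2 rose and 2 fell, Cyp4a10 at 1.23 (edgeR adjusted p = 0.016) and Cyp4a12a, a male-biased enzyme, at -1.54 (0.0223). Cyp4a10 also rose in fl/fl, at 1.33 (edgeR adjusted p = 0.041). Of all genes tested in this comparison of the Pt-CrAT label, 5.61% rose and 5.71% fell. When CrAT24Mchow123 and CrAT24Mchow136 were left out, 2.8% of all genes passed, and there 1 Slco gene rose and 1 fell, 0 Slc7 genes rose and 1 fell, and 0 Cyp4 genes passed.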
